A study of Mus musculus with 12 samples.

Results

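The BCL2 family of apoptosis regulators was followed in mouse liver through 10 genes, taken by symbol from the deposited table of 55414 Ensembl genes. They were Bcl2l1, Mcl1 and Bcl2, which inhibit apoptosis, Bax and Bak1, which carry it out, and Bcl2l11, Bbc3, Pmaip1, Bid and Bmf, which trigger it. Each symbol matched 1 Ensembl gene, and all 10 genes had enough counts to be tested. Female C57Bl/6J mice of 8 to 12 weeks received 0.9% NaCl or 300 mg/kg FeSO4 as a first intraperitoneal injection and, 6 h later, PBS or 10 mg/kg dexamethasone (DEX, a synthetic glucocorticoid). Whole livers were taken 2 h after the second injection, 8 h after the first, and RNAseq was performed on 12 mice in 4 groups of 3, named NaCl/PBS, NaCl/DEX, FeSO4/PBS and FeSO4/DEX. The study used these groups to ask how iron overload changes the liver transcriptome and whether the glucocorticoid receptor (GR) still responds to DEX afterwards.

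The BCL2 family decides whether the outer membrane of mitochondria stays intact. BAX and BAK form pores in this membrane, through which cytochrome c escapes to start the caspase cascade. BCL-XL (encoded by Bcl2l1), MCL1 and BCL2 bind and restrain them, and the BH3-only proteins BIM (Bcl2l11), PUMA (Bbc3), NOXA (Pmaip1), BID and BMF, which carry a single BCL2 homology domain, neutralize these guardians or activate the effectors directly. In hepatocytes BCL-XL and MCL1 are the main guardians, whereas BCL2 is best known from lymphoid cells.

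Reads counted on genes numbered between 16335651 and 23827340 per library, with a median of 19602514, and 13857 genes were tested in 1 edgeR quasi-likelihood model of the 4 groups. A gene was called when its Benjamini-Hochberg adjusted p over all tested genes (edgeR FDR) was 0.05 or less. Levels of 1 gene are given as TMM-normalized counts, which are scaled to a common library size, and log2 fold changes as LFC. Of 8 hepatocyte markers 7 were matched by symbol (transferrin was searched as Tf rather than its mouse symbol Trf), and each of them was abundant in all libraries. Their summed normalized counts were 1990000 to 2350000 in NaCl/PBS and 2440000 to 2750000 in FeSO4/PBS mice. Summed neutrophil markers rose from 122 to 299 in NaCl/PBS mice to 814 to 970 in FeSO4/PBS mice, with 6 of 7 tested markers higher, and were 86.6 to 125 in NaCl/DEX and 605 to 731 in FeSO4/DEX mice. Ltf was at 0 in the NaCl/PBS mice, and Ly6g, Ngp and Camp in the NaCl/DEX mice. Macrophage markers fell in sum from 8860 to 10200 down to 4850 to 5670, with 8 of 9 lower, and lymphocyte markers summed to 68.3 to 107 and 72.2 to 91.8. Endothelial markers summed to 5000 to 5850 and 5090 to 6470, with 2 of 7 higher and 3 lower. Over all tested genes 27.2% were called higher and 27.3% lower after FeSO4 alone, and 6.50% and 7.15% after DEX in NaCl mice. After DEX in NaCl mice 1 neutrophil and 1 endothelial marker were lower, and 1 hepatocyte and 1 endothelial marker were higher. In whole liver, fewer cells of a type and less RNA per cell cannot be told apart, and the part of these shifts in the BCL2 family values was not tested.

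After FeSO4 alone, 4 of the 10 members rose and 2 fell. Bcl2l1 and Mcl1, the guardians of the hepatocyte, rose 6.66-fold and 2.21-fold, and so did the BH3-only gene Bcl2l11 (5.59-fold) and the effector gene Bak1 (1.82-fold), whose call was lost without FeSO4/PBS mouse 1 (LFC 0.32, edgeR FDR 0.15). Bbc3 and Bmf, both BH3-only, fell to 0.267 and 0.447 of the control level. The other 4 members, Bcl2, Bax, Pmaip1 and Bid, were not called. Of all 13857 genes 27.2% were called higher and 27.3% lower in this comparison, so that the number of members called was near the background. The median LFC of the members was 0.47, against -0.02 over all genes. In 8 of the members FeSO4/PBS and NaCl/PBS values were fully separate, as was the case for 60.0% of all genes.

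**Figure D1:**
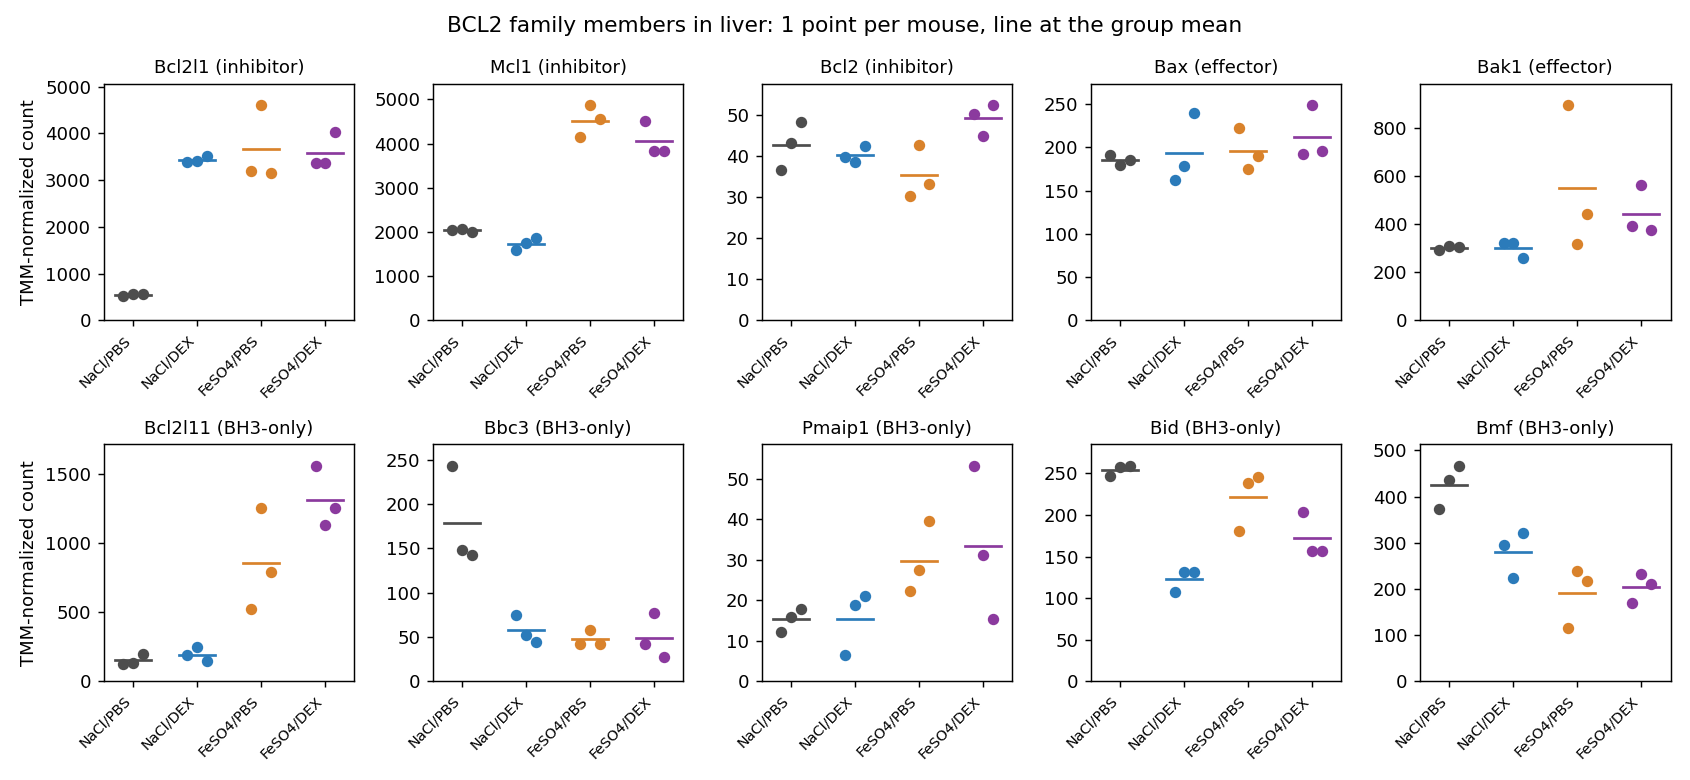
TMM-normalized counts of the 10 members (y axis, starting at 0, own scale per gene) in the 4 groups (x axis), with 1 point per mouse and a line at the group mean (n = 3). Bcl2l1 lay between 528 and 560.3 in NaCl/PBS mice and above 3160 in every mouse of the other 3 groups, while Mcl1 and Bcl2l11 were raised in both FeSO4 groups and not in NaCl/DEX mice.

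Stretches before the start sites of 4 members are shown here because these members stand for the different responses: Bcl2l1 rose after either agent, Bcl2l11 was higher in both FeSO4 groups, Bbc3 fell after either agent, and Bax was not called in any comparison. The sequences were read from GRCm39, the build to which the reads were mapped, at chr2:152673656-152673855 (minus strand) for Bcl2l1, chr2:127967708-127967957 (plus strand) for Bcl2l11, chr7:16042471-16042670 (plus strand) for Bbc3 and chr7:45116326-45116575 (minus strand) for Bax. That of Bcl2l1 ends at its outermost annotated start and the others at the start of the canonical transcript. The annotated Bbc3 gene begins farther upstream, at 16042318, so that the stretch shown for Bbc3 and its marked site lie inside the gene. Capitals mark a FOXO element in Bcl2l11 and a p53 half-site in Bbc3 and Bax.
Bcl2l1: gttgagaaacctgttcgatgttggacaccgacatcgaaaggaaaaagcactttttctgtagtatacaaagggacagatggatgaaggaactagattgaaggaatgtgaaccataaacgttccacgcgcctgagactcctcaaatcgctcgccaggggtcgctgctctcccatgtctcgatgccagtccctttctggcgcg
Bcl2l11: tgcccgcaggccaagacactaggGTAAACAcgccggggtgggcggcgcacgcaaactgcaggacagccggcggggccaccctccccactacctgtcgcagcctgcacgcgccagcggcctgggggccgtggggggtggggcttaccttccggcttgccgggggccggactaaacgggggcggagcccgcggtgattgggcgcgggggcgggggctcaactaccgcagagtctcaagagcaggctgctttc
Bbc3: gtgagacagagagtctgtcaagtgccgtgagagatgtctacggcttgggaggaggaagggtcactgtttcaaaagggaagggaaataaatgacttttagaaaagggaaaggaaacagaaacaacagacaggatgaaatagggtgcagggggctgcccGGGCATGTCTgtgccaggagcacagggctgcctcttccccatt
Bax: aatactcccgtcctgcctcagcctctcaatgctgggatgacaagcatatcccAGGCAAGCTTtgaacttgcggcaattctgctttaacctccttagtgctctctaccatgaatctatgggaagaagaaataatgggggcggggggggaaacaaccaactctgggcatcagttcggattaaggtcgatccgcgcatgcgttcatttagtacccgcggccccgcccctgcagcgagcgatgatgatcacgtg

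The 1000 bases before the canonical start of each member were searched on both strands for 5 motifs, and the same window of 12674 protein-coding genes served as background. These were the FOXO element TGTTTAC (present in 12% of the windows), the AP-1 element TGANTCA (22.0%), the amino acid response element TGATGNAA (11.4%), the p53 half-site by its name (29.3%) and a GR response element of GNACA and TGTNC with any 3 bases between them (1.59%). The window of Bcl2l1 held none of the 5, and neither did those of Mcl1 and Bcl2. The FOXO element stood 221 to 227 bases before the Bcl2l11 start and 63 to 69 bases before that of Bak1. A p53 half-site lay 34 to 43 bases before the Bbc3 start and 189 to 198 bases before the Bax start, and Pmaip1 had 2. Bid held an AP-1 element, and Bmf and Pmaip1 each held an amino acid response element. A match describes letters in a window and no bound factor.

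Per length, Mcl1 was the most abundant member in NaCl/PBS mice, with 29.5 ± 0.58 CPM per kb of exon (SD, n = 3). Bak1 (6.34 ± 0.20), Bcl2l1 (5.39 ± 0.18), Bax (5.04 ± 0.15) and Bmf (4.07 ± 0.46) followed on the same scale, then Bbc3 (1.88 ± 0.59), Bid (1.31 ± 0.034), Bcl2l11 (0.767 ± 0.197), Pmaip1 (0.283 ± 0.052) and Bcl2 (0.234 ± 0.032). Only Pmaip1 and Bcl2, the last of this order, had overlapping ranges, although Bcl2l1 (lowest 5.19) and Bax (highest 5.18) almost touched. In NaCl/DEX mice Bcl2l1 took the first place, with 33.8 ± 0.73 CPM per kb against 25.1 ± 1.98 of Mcl1, and their ranges did not overlap. In both FeSO4 groups Mcl1 was first again (65.4 ± 5.28 without and 58.6 ± 5.69 with DEX) and Bcl2l1 second (35.9 ± 8.07 and 35.3 ± 3.80). These values divide by all annotated exon bases of a gene, so that genes with many alternative exons, such as Bid and Bcl2l11, are set too low. Exon lengths came from another GENCODE release than the one named by the study. The effect of this on the order was not tested.

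**Figure D2:**
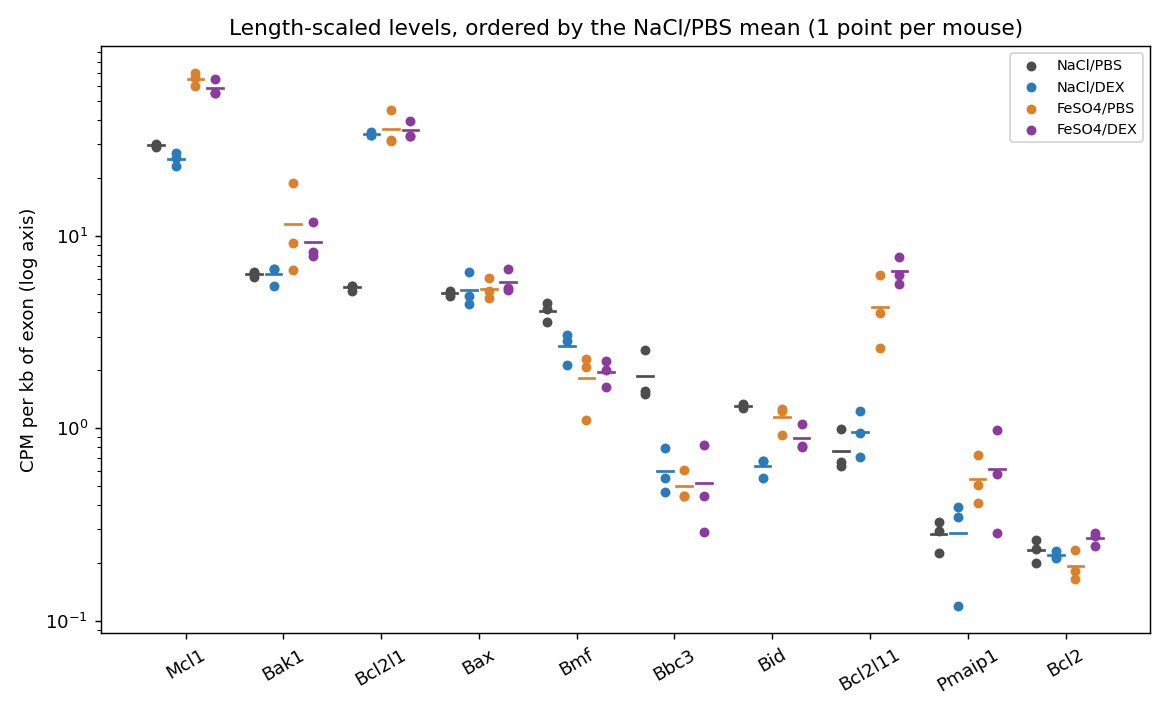
Levels per length (CPM per kb of exon, log y axis) of the 10 members, ordered by their NaCl/PBS mean, with 1 point per mouse and a line at the mean of each group (n = 3). Bcl2l1 moved from 5.39 in NaCl/PBS mice to between 33.8 and 35.9 in the other groups, and Bcl2l11 from 0.767 to 4.28 after FeSO4 alone and 6.55 after both agents.

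Bcl2l1 (ENSMUSG00000007659, chromosome 2 from 152622582 to 152673655, GRCm39), the gene of BCL-XL, had 528, 558 and 560.3 normalized counts in the 3 NaCl/PBS mice. It had 3384.5, 3405 and 3522 in the NaCl/DEX, 3204, 4604 and 3160.2 in the FeSO4/PBS mice, and with both agents 3371.5, 3360.3 and 4036. Every mouse that received either agent lay far above every NaCl/PBS mouse, and the 3 treated groups overlapped each other. The LFC after FeSO4 was 2.74 (SE 0.15, edgeR FDR 1.9e-08) and that after DEX in NaCl mice 2.65 (SE 0.15, edgeR FDR 9.4e-08). Both comparisons share the NaCl/PBS mice. In FeSO4 mice DEX was followed by no further rise, with an LFC of -0.03 (95% interval -0.32 to 0.27, edgeR FDR 0.98), and in DEX mice FeSO4 gave 0.06 (95% interval -0.23 to 0.36, edgeR FDR 0.75). The DEX responses of FeSO4 and NaCl mice differed by an LFC of -2.67 (SE 0.20, edgeR FDR 5.5e-06). Bcl2l1 was the 1 member called in the test of this difference, in which 6.18% of all genes were called.

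Mcl1 (ENSMUSG00000038612, chromosome 3 from 95566026 to 95570487), whose short-lived protein binds BAK and BIM, had 2051, 2075 and 1997 normalized counts in NaCl/PBS mice. The FeSO4/PBS mice had 4142, 4869.7 and 4549, the FeSO4/DEX mice 4507, 3824 and 3829, and the NaCl/DEX mice 1597, 1749.8 and 1871. All FeSO4 mice lay above all mice without FeSO4, and the NaCl/DEX mice lay slightly below the NaCl/PBS mice without overlap. FeSO4 raised Mcl1 by an LFC of 1.15 (SE 0.11, edgeR FDR 1.5e-06) in PBS mice and by 1.22 (SE 0.11, edgeR FDR 1.4e-06) in DEX mice. After DEX the LFC was -0.23 (SE 0.11, edgeR FDR 0.19) in NaCl mice and -0.16 (SE 0.11, edgeR FDR 0.82) in FeSO4 mice. With library size in place of TMM the value in NaCl mice was -0.38 (edgeR FDR 0.039).

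Bcl2 (ENSMUSG00000057329, chromosome 1 from 106465908 to 106642060), the founding member of the family, was scarce, with 26 to 57 reads per library. Its normalized counts ranged from 36.7 to 48.2 in NaCl/PBS mice, from 38.5 to 42.3 with DEX, from 30.2 to 42.7 with FeSO4 and from 44.9 to 52.3 with both. The FeSO4/DEX mice all lay above the FeSO4/PBS mice, an LFC of 0.47 (SE 0.24, unadjusted p = 0.068 and edgeR FDR 0.76), and Bcl2 was called in no comparison. After FeSO4 alone the LFC was -0.26 (95% interval -0.77 to 0.24, edgeR FDR 0.36).

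Of the effectors, Bax (ENSMUSG00000003873, chromosome 7 from 45111015 to 45116325) varied little between the groups. Its 12 libraries lay between 162 and 249 normalized counts, and the 4 group means between 185 and 212. The LFC of Bax after FeSO4 was 0.08 (95% interval -0.28 to 0.44, edgeR FDR 0.71), and after DEX in NaCl mice 0.06 (95% interval -0.30 to 0.42, edgeR FDR 0.86).

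Bak1 (ENSMUSG00000057789, chromosome 17 from 27238784 to 27247983) had 292, 310.4 and 305 normalized counts in NaCl/PBS and 893, 316 and 440.0 in FeSO4/PBS mice. It had 319.9, 321 and 261 in NaCl/DEX and 392, 561 and 377 in FeSO4/DEX mice. FeSO4/PBS mouse 1 stood far above the other 2 of its group, of which mouse 2 was barely above the controls. The LFC of 0.86 (SE 0.28, edgeR FDR 0.019) rested on this mouse, since without it the value was 0.32 (edgeR FDR 0.15). Leaving out NaCl/PBS mouse 1 (LFC 0.84, edgeR FDR 0.053) ended the call too, as did library size in place of TMM (LFC 0.53, edgeR FDR 0.11). In DEX mice FeSO4 gave an LFC of 0.56 (SE 0.29, edgeR FDR 0.13), with no overlap between the groups. This was called with no filter on low counts (edgeR FDR 0.0040), in a fit to the groups compared (0.021) and without FeSO4/PBS mouse 1 (0.018). The fit with no filter gave some edgeR FDRs far below the main ones at near-equal LFCs. For Bcl2l11 after FeSO4 alone it gave 1.2e-53 against 9.6e-06. Its calls named below carry the same limit. Ggnbp1, which overlaps exons of Bak1 on the other strand, was itself at 67.2 normalized counts in NaCl/PBS and 31.0 in FeSO4/PBS mice and at 37.3 in FeSO4/PBS mouse 1.

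Among the BH3-only genes, Bcl2l11 (ENSMUSG00000027381, chromosome 2 from 127967958 to 128004476), the gene of BIM, which binds all guardians and activates the effectors, rose most. Its normalized counts were 128, 134 and 199 in NaCl/PBS mice and 190.0, 245 and 143 in NaCl/DEX mice. With FeSO4 they were 525, 1254 and 792 in PBS mice and 1556, 1129.6 and 1249.7 in DEX mice. Every FeSO4 mouse exceeded every mouse without FeSO4, by a wide margin and with a wide spread among the FeSO4/PBS mice. The LFC after FeSO4 was 2.48 (SE 0.29, edgeR FDR 9.6e-06) in PBS mice and 2.76 (SE 0.29, edgeR FDR 5.7e-06) in DEX mice. DEX gave an LFC of 0.33 (SE 0.29, edgeR FDR 0.52) in NaCl mice and of 0.61 (SE 0.27, unadjusted p = 0.038, edgeR FDR 0.76) in FeSO4 mice, where the groups overlapped. The latter was called when no filter on low counts was used (edgeR FDR 0.0073). The test of the difference between these DEX responses gave an LFC of 0.28 (SE 0.40, edgeR FDR 0.74).

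Bbc3 (ENSMUSG00000002083, chromosome 7 from 16042318 to 16052130) encodes PUMA, a p53-inducible killer that binds every guardian. Its normalized counts were 243, 149 and 143 in NaCl/PBS mice and 75.1, 52.7 and 44.3 in NaCl/DEX mice. With FeSO4 they were 42.3, 58.0 and 42.1 in PBS mice and 42.5, 77.5 and 27.3 in DEX mice. All 9 mice that received FeSO4, DEX or both lay below all NaCl/PBS mice, of which mouse 1 was the highest. FeSO4 lowered Bbc3 by an LFC of -1.91 (SE 0.34, edgeR FDR 3.0e-04) and DEX in NaCl mice by -1.64 (SE 0.33, edgeR FDR 0.0039). In FeSO4 mice the LFC after DEX was 0.03 (95% interval -0.75 to 0.80, edgeR FDR 0.99), and FeSO4 in DEX mice gave -0.24 (95% interval -1.0 to 0.52, edgeR FDR 0.62). The difference of the DEX responses was 1.67 (SE 0.49, unadjusted p = 0.0042) and was not called at an edgeR FDR of 0.061. It was called under DESeq2 (adjusted p = 0.023), with library size alone (edgeR FDR 0.041), with no filter on low counts (edgeR FDR 4.6e-04) and without FeSO4/DEX mouse 3 (edgeR FDR 0.032). The fit with no filter gave some edgeR FDRs far below the main ones at near-equal LFCs.

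Bmf (ENSMUSG00000040093, chromosome 2 from 118359238 to 118380177), whose protein is held at the cytoskeleton until released, fell as well. It had 373, 435 and 466 normalized counts in NaCl/PBS mice and 295, 223 and 320.2 in NaCl/DEX mice. With FeSO4 it had 115, 239 and 217 in PBS mice and 170.1, 232 and 210.5 in DEX mice. All 9 treated mice were below the lowest of the NaCl/PBS mice. The LFC after FeSO4 was -1.16 (SE 0.23, edgeR FDR 7.3e-04). After DEX in NaCl mice it was -0.60 (SE 0.22, unadjusted p = 0.017), with an edgeR FDR of 0.094 that came to 0.019 in a fit to the 2 groups compared, 0.032 with library size alone, 0.0069 with no filter on low counts and 0.016 without FeSO4/PBS mouse 1. FeSO4 in DEX mice gave -0.45 (SE 0.23, edgeR FDR 0.13), and the same 4 alternatives called it, at edgeR FDRs from 0.019 to 0.044 and with an LFC of -0.65 under library size alone.

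Bid (ENSMUSG00000004446, chromosome 6 from 120862525 to 120894171), which links death receptors to mitochondria once caspase 8 has cleaved it, was lowest after DEX alone. Its normalized counts were 247, 257 and 259 in NaCl/PBS mice and 107, 132 and 131 in NaCl/DEX mice. With FeSO4 they were 180.4, 238 and 246 in PBS mice and 204, 156 and 157 in DEX mice. Among the 12 mice the 3 NaCl/DEX mice were the lowest, and the FeSO4/PBS mice lay below the NaCl/PBS mice, mouse 3 by less than 1 normalized count. DEX lowered Bid by an LFC of -1.04 (SE 0.16, edgeR FDR 6.3e-04) in NaCl mice and gave -0.35 (SE 0.16, unadjusted p = 0.046, edgeR FDR 0.76) in FeSO4 mice, with a difference of 0.69 (SE 0.23, edgeR FDR 0.098) that was not called. After FeSO4 the LFC was -0.20 (SE 0.16, edgeR FDR 0.30) in PBS mice, or -0.52 (edgeR FDR 0.020) with library size in place of TMM, and 0.49 (SE 0.17, edgeR FDR 0.029) in DEX mice. The latter call was lost in several alternatives, among them without NaCl/DEX mouse 1 (LFC 0.39, edgeR FDR 0.11) and without FeSO4/DEX mouse 1 (LFC 0.34, edgeR FDR 0.14). Exons of Bid share 3059 bases with those of Bcl2l13 on the other strand, and the strand setting of the counts is not given in the sources used here. Bcl2l13 had 868 normalized counts in NaCl/PBS mice and 886 after DEX alone, and with FeSO4 1060.0 in PBS mice and 1049 in DEX mice.

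Pmaip1 (ENSMUSG00000024521, chromosome 18 from 66591604 to 66598636), the gene of NOXA, which neutralizes MCL1, was scarce, with 6 to 55 reads per library. Its normalized counts ranged from 12.2 to 17.8 in NaCl/PBS mice, from 6.44 to 21.1 with DEX, from 22.2 to 39.5 with FeSO4 and from 15.5 to 53.2 with both. The FeSO4/PBS mice all lay above the NaCl/PBS mice, but the LFC of 0.95 had an SE of 0.48 and was not called (edgeR FDR 0.11). In DEX mice FeSO4 gave an LFC of 1.11 (SE 0.48, edgeR FDR 0.079), with overlapping groups. This was called without FeSO4/DEX mouse 3 (LFC 1.42, edgeR FDR 0.031) and with no filter on low counts (edgeR FDR 0.0496), and leaving out single mice gave LFCs from 0.57 to 1.42. The 95% interval of the LFC in PBS mice ran from -0.08 to 1.98.

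**Figure D3:**
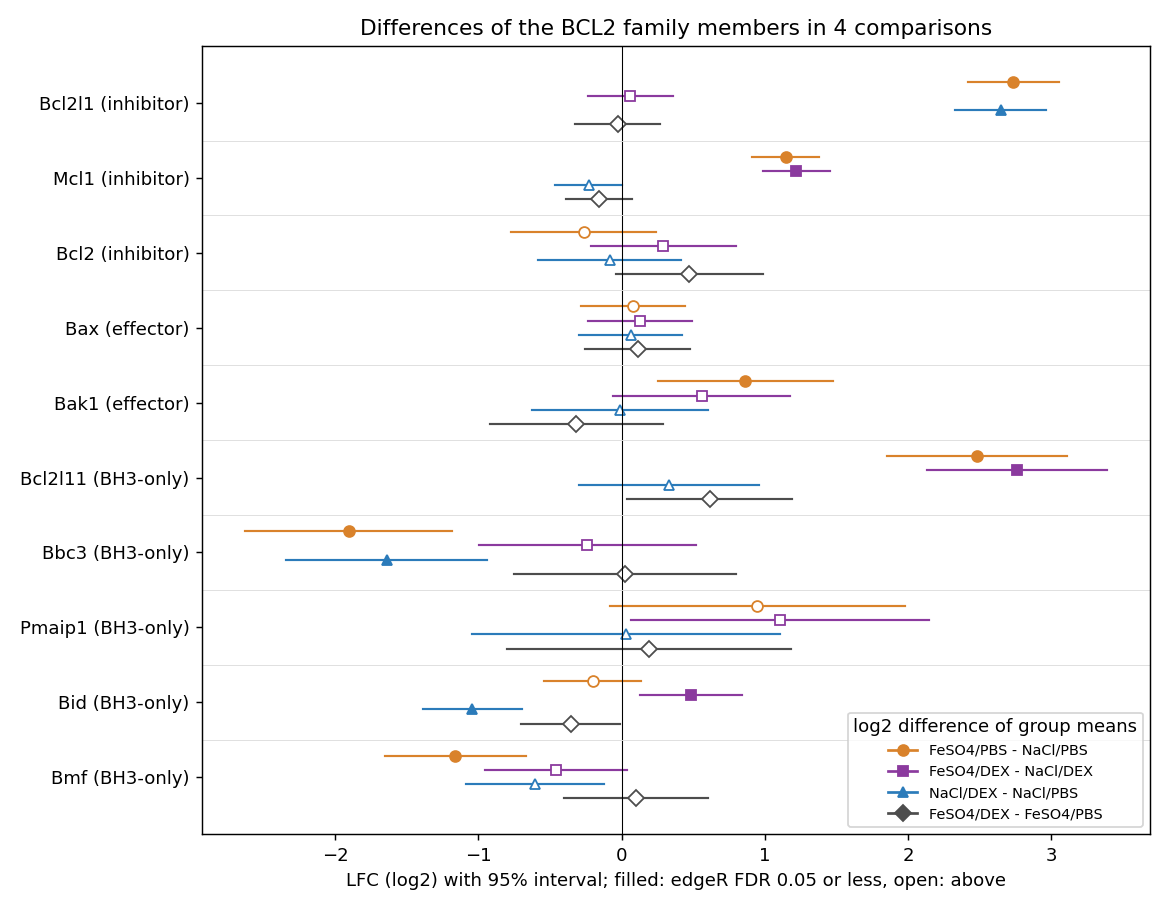
LFC (x axis, log2 difference of group means) with 95% intervals for the 10 members (y axis) in 4 comparisons from the model of 12 libraries, with filled symbols at an edgeR FDR of 0.05 or less. The 2 comparisons against NaCl/PBS mice place Bcl2l1 at 2.74 and 2.65 and Bbc3 at -1.91 and -1.64, whereas no symbol of DEX in FeSO4 mice is filled.

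In NaCl mice, DEX for 2 h thus raised 1 member, Bcl2l1, and lowered 2, Bbc3 and Bid. Over all genes 6.50% were called higher and 7.15% lower. In 5 of the members NaCl/DEX and NaCl/PBS values were fully separate, against 37.9% of all genes, and Bcl2l1 was the one of them that lay above. The median LFC of the members was -0.05, against -0.02 over all genes. Neither Bcl2, Bax, Bak1, Bcl2l11 nor Pmaip1 had an edgeR FDR below 0.52 in this comparison.

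In FeSO4 mice, edgeR called 0 of the 10 members after DEX, and 0% of all 13857 genes. The study, which used DESeq2 and in its text a threshold on the LFC besides the FDR, reported a few genes as changed by DEX in these mice. That count and the one of edgeR rest on unlike tests and thresholds, and DESeq2 was read here for the members only. At an unadjusted p under 0.05 there were 2 members, Bcl2l11 and Bid, and 6.49% of all genes, and DESeq2 also called 0 members. With no filter on low counts edgeR called 1 member, Bcl2l11. Bcl2 was the only member without overlap between the FeSO4/DEX and FeSO4/PBS mice, where 9.30% of all genes had none. The median LFC of the members was 0.06.

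When mice given DEX were compared for FeSO4, 3 members were higher (Mcl1, Bcl2l11 and Bid) and 0 lower, and over all genes 22.4% were higher and 20.9% lower. For the 0 lower members, edgeR at an unadjusted p under 0.05 and DESeq2 at its adjusted threshold also gave 0, but 4 alternatives called 1 lower member, Bmf. Without FeSO4/PBS mouse 1, 5 members were called. Bcl2l1 and Bbc3, which were called after FeSO4 alone, were called here in none of the alternatives run, whereas the calls of Bmf and Bak1 depended on the setting. The groups of this comparison share no mouse with the comparison of FeSO4/PBS and NaCl/PBS mice.

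Of 15 other BCL2 family genes 9 could be tested, and after FeSO4 1 rose and 3 fell, with a median LFC of -0.06. The shares over all genes were 27.2% higher and 27.3% lower after FeSO4, and 6.50% and 7.15% after DEX in NaCl mice. Bcl2l2, the gene of the guardian BCL-W, fell from 377 to 153 normalized counts (LFC -1.30, SE 0.11, edgeR FDR 7.5e-07), Bad, a BH3-only gene under the control of growth factor signaling, from 250.2 to 117 (LFC -1.10, SE 0.17, edgeR FDR 1.0e-04), and Bcl2l12 from 83.5 to 43.6 (LFC -0.94, SE 0.25, edgeR FDR 0.0061). Bnip3, a mitophagy receptor related to the BH3-only proteins, rose by an LFC of 0.57 (SE 0.17, edgeR FDR 0.012). After DEX in NaCl mice 2 were higher, Bnip3 (LFC 0.82) and Bnip3l (0.47), and 3 lower, Bik (-1.40), Bcl2l12 (-0.79) and Bcl2l2 (-0.46). Bok, Bcl2l13 and Bcl2l14 were called in neither comparison, with LFCs after FeSO4 of -0.06, 0.29 and 0.93. Bcl2a1a, Bcl2a1b and Bcl2a1d, near-identical genes that can share reads, and Bcl2l10, Hrk and Bcl2l15 had too few counts to be tested, with group means of 6.46 normalized counts at most.

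Downstream of the mitochondria, all 19 genes of the apoptosome, the caspases and their inhibitors were tested, and 4 were higher and 7 lower after FeSO4 (median LFC -0.19). The shares over all genes were 27.2% higher and 27.3% lower after FeSO4, and 6.50% and 7.15% after DEX in NaCl mice. Apaf1, the scaffold of the apoptosome, rose from 95.8 to 232 normalized counts (LFC 1.28, SE 0.19, edgeR FDR 7.9e-05), while its partner Casp9 fell from 431 to 150.2 (LFC -1.53, SE 0.21, edgeR FDR 3.5e-05). Diablo, an antagonist of the inhibitor of apoptosis proteins, rose by an LFC of 0.78 (SE 0.20, edgeR FDR 0.0050) and Casp8, the initiator caspase of death receptors, by 0.71 (SE 0.16, edgeR FDR 0.0017). Xiap, which blocks caspases, fell by an LFC of -1.05 (SE 0.11, edgeR FDR 2.7e-06) and Parp1, a caspase substrate, by -0.89 (SE 0.11, edgeR FDR 1.4e-05). After DEX in NaCl mice 1 gene was higher and 2 lower, among them Casp9 (LFC -0.99, SE 0.20, edgeR FDR 0.0045). The DEX response of Casp9 differed between FeSO4 and NaCl mice by an LFC of 1.18 (SE 0.29, edgeR FDR 0.030). That of Cycs, the gene of cytochrome c, differed by -0.67 (SE 0.18, edgeR FDR 0.043), and Cycs was higher after FeSO4 (LFC 0.66) and after DEX in NaCl mice (0.54).

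Of 12 transcription factors known to act on members 11 were tested, and 5 were higher and 2 lower after FeSO4 (median LFC 0.21). The shares over all genes were 27.2% higher and 27.3% lower after FeSO4, and 6.50% and 7.15% after DEX in NaCl mice. Myc rose by an LFC of 3.58 (SE 0.31), Foxo1 by 1.83 (SE 0.14) and Atf4 by 1.64 (SE 0.20), with edgeR FDRs of 6.9e-07, 1.6e-07 and 1.5e-05. Nr3c1, the gene of the GR, fell by -0.89 (SE 0.15, edgeR FDR 1.8e-04) and Foxo3 by -0.63 (SE 0.18, edgeR FDR 0.0075). Trp53, the gene of p53, had an LFC of 0.21 (SE 0.22, edgeR FDR 0.42). DEX in NaCl mice raised 3, Myc (LFC 2.37), Foxo1 (1.21) and Foxo3 (1.06), and lowered 0. At an unadjusted p under 0.05 edgeR gave 2 lower, Nr3c1 (LFC -0.34, edgeR FDR 0.15) and Stat3 (LFC -0.33, edgeR FDR 0.18). Stat3 was among the 5 factors called higher after FeSO4 in PBS mice (LFC 1.39, SE 0.15, edgeR FDR 5.0e-06). Foxo3 was thus lower after FeSO4 and higher after DEX. The difference of the DEX responses was called for Foxo1 (LFC -1.02, SE 0.19, edgeR FDR 0.0052) and Foxo3 (LFC -1.0, SE 0.25, edgeR FDR 0.028).

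Among 14 genes for protein-level regulators and mitochondrial partners, 6 were higher and 2 lower after FeSO4 (median LFC 0.21). The shares over all genes were 27.2% higher and 27.3% lower. Ywhaz, a 14-3-3 protein, rose by an LFC of 1.32 (SE 0.12, edgeR FDR 9.7e-07), Mdm2, the ubiquitin ligase of p53, by 1.07 (SE 0.12, edgeR FDR 5.7e-06) and Vdac2, a channel of the outer membrane that binds BAK, by 0.69 (SE 0.10, edgeR FDR 8.6e-05). Dynll1, the dynein light chain to which BIM can bind, fell by -1.0 (SE 0.18, edgeR FDR 4.4e-04). Btrc, a subunit of a ubiquitin ligase, fell by -0.84 (SE 0.15, edgeR FDR 3.3e-04).

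**Figure D4:**
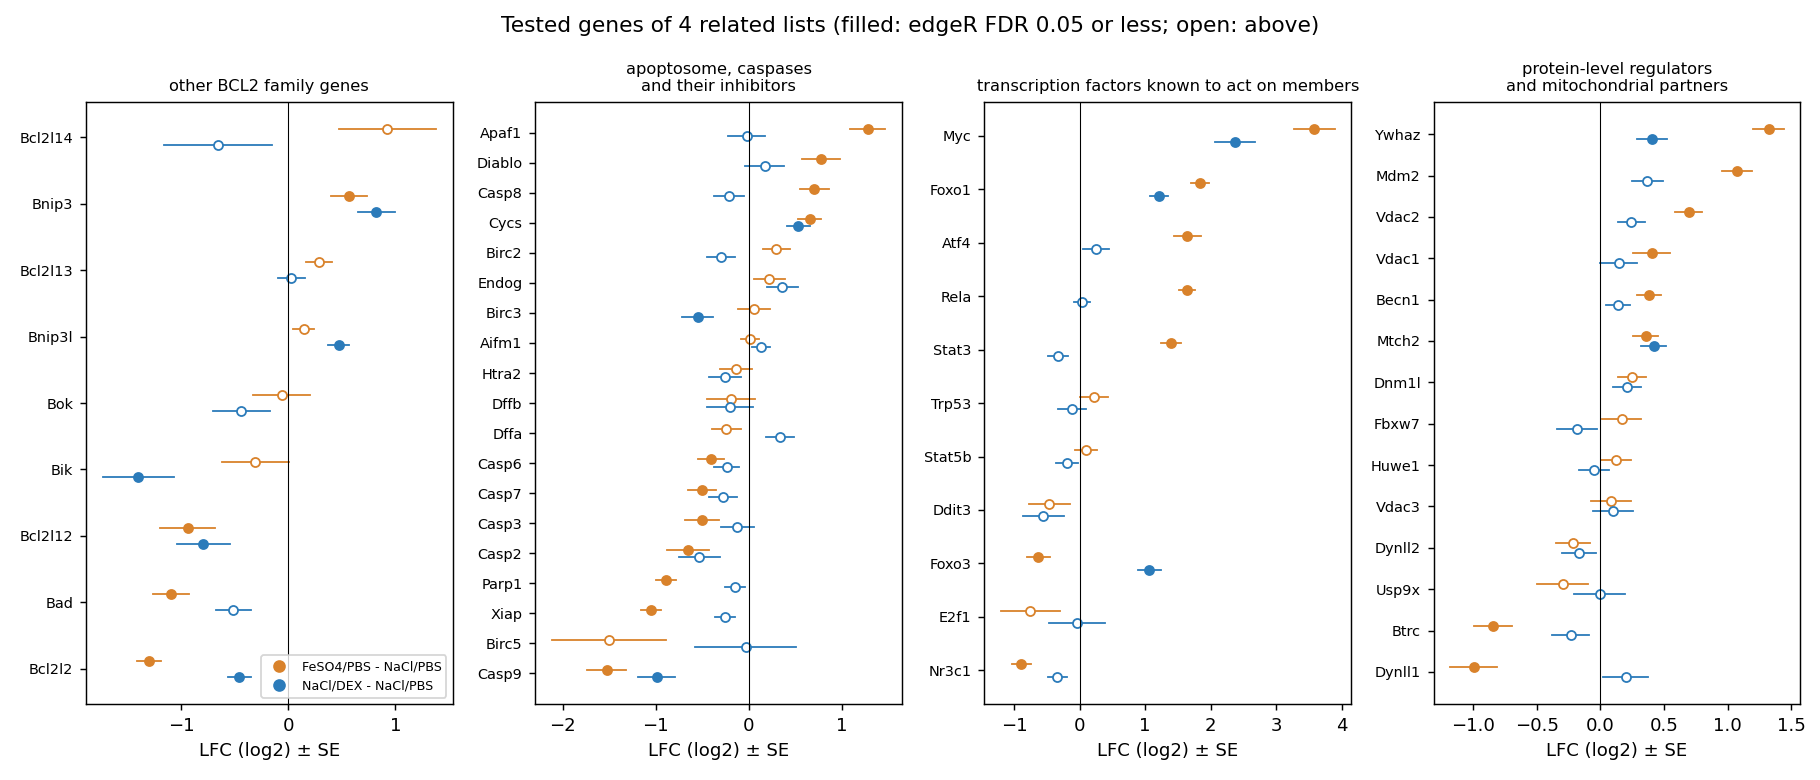
LFC ± SE (x axes) of the tested genes in 4 related lists after FeSO4 in PBS mice (orange) and after DEX in NaCl mice (blue), both against the same 3 NaCl/PBS mice, with filled symbols at an edgeR FDR of 0.05 or less. Apaf1 and Casp9 lie at opposite ends of their list after FeSO4 (1.28 and -1.53), and Foxo3 falls after FeSO4 (-0.63) and rises after DEX (1.06).

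For each member the gene with the most similar profile over the 12 libraries was found by the root-mean-square difference of centred log2 CPM. As the lowest of all genes compared, this difference lies below their median by the way it is chosen. The median gives the scale only, and no match was tested. For Bcl2l1 this was Tat, the gene of tyrosine aminotransferase, at a difference of 0.25 against a median of 1.23 over the genes compared. Csrnp1 was closest to Bcl2l11 (0.23, median 1.40), Gna13 to Mcl1 (0.12, median 0.70) and Saxo2 to Bbc3 (0.28, median 0.93). Bmf was matched by Tbc1d32 (0.17), Bid by Themis2 (0.11), Bak1 by Stx18 (0.15), Bax by Higd2a (0.10), Bcl2 by Foxp1 (0.12) and Pmaip1 by Ripk3 (0.33).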

How the data were processed

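Whole liver RNA of 12 mice was sequenced. Per the labels and the methods of the study, the authors mapped reads with STAR 2.7.10b to mm39 (GRCm39) and deposited raw read counts per Ensembl gene. The strand setting of the counting is not given in the sources used here. Symbols, positions and exon lengths came from a GENCODE annotation of GRCm39 and were found for 54749 of 55414 genes. This annotation was a different release from the one the study named for mapping. Members and lists were chosen with earlier results of these data known. Genes passing edgeR's filterByExpr were fitted with TMM factors in a quasi-likelihood model of the 4 groups (edgeR 4.0.16, R 4.3.3), and p-values were adjusted by Benjamini-Hochberg over 13857 genes. The 5 comparisons were FeSO4 in PBS mice, DEX in NaCl mice, DEX in FeSO4 mice, FeSO4 in DEX mice and the difference of the DEX responses. LFC used a prior count of 0.125. Profiles were compared as log2 CPM with a prior count of 2. A single gene compared exactly between 3 and 3 mice cannot go below p = 0.1. The named genes were all members and other BCL2 family genes, the 3 largest called rises and falls after FeSO4 in each other list and the closest profile of each member. Trp53, Stat3 and genes called for DEX were added after their values were seen. Replicates were separate mice, and libraries of a group differed well beyond counting noise. Alternatives were DESeq2 (1.42.0), its size factors, library size alone, other filters, a replicate block, a fit to the libraries compared only and leaving out each mouse. Same-numbered mice were not treated as pairs.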

Additional observations from a re-analysis of the deposited data

Results flagged for a closer look

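The DEX response of Bcl2l1 differed between mice that had received FeSO4 and mice that had received NaCl, by a test of the difference itself. The difference of the LFCs was -2.67 (SE 0.20, 95% interval -3.10 to -2.25, edgeR FDR 5.5e-06). DEX was followed by higher counts in 3 of 3 NaCl mice than in any NaCl/PBS mouse, while the FeSO4/DEX and FeSO4/PBS mice overlapped. Without DEX the FeSO4/PBS mice were already at 3160.2 to 4604 normalized counts. The NaCl/DEX mice were at 3384.5 to 3522 and the NaCl/PBS mice at 528 to 560.3. The difference therefore describes no further rise in mice in which Bcl2l1 was already high. Leaving out each mouse in turn, the difference lay between -2.80 and -2.48.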

How the results depend on the processing

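Of the members called, 5 of 6 after FeSO4 in PBS mice, 3 of 3 after DEX in NaCl mice, 2 of 3 after FeSO4 in DEX mice and 1 of 1 for the difference of the DEX responses were called in every alternative that was run. The exceptions were Bak1 in the first and Bid in the third comparison. Over 935 alternative LFCs, 859 kept direction and side of the threshold, 8 lost and 20 gained a call and 48 changed sign, none of the last called on either side. The TMM factors, which library size alone leaves out, differed by group. They were 1.14 to 1.16 in NaCl/PBS and 1.02 to 1.06 in NaCl/DEX mice. In FeSO4/PBS mice they were 0.896 to 0.952 and in FeSO4/DEX mice 0.871 to 0.944. The cause of the changed calls and signs was not tested.

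Counts of called members moved by over 1.5 times with library size alone (5 for DEX in NaCl mice, 2 for the difference), with no filter on low counts (1 for DEX in FeSO4 mice, 5 for FeSO4 in DEX mice, 2 for the difference) and with DESeq2 (2 for the difference). A smaller move, to 4, was seen for DEX in NaCl mice with no filter and for this and FeSO4 in DEX mice with the compared libraries only, and library size alone gave 3 higher and 3 lower after FeSO4 in PBS mice. Leaving out each mouse gave 5 to 6, 3 to 4, 0, 2 to 5 and 1 to 2 called members in the 5 comparisons. The replicate block gave 6, 3, 0, 3 and 1, the same counts as without it. Deviations of log2 CPM from the group mean were correlated between mice of different groups, over genes above the median level. Same-numbered mice correlated above 0.1 in 3 of 18 pairs (-0.169 to 0.242), and pairs with different numbers ranged from -0.349 to 0.309. With no filter on low counts some edgeR FDRs were far below the main ones at near-equal LFCs. For Bcl2l11 after FeSO4 in PBS mice they were 1.2e-53 and 9.6e-06. The reason was not tested, and the calls gained with no filter carry this limit.

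Signs changed with library size alone for Bax after FeSO4 in PBS mice (-0.24), DEX in NaCl mice (-0.092) and FeSO4 in DEX mice (-0.067), for Pmaip1 after DEX in NaCl mice (-0.12), Bbc3 after DEX in FeSO4 mice (-0.0084) and Bcl2l1 after FeSO4 in DEX mice (-0.13). Bak1 after DEX in NaCl mice was 0.015 with DESeq2's size factors, 0.0095 with the compared libraries only and 0.018 with DESeq2. Bbc3 after DEX in FeSO4 mice was -0.0019 with the replicate block. Leaving out each mouse gave the following ranges that include both signs. After FeSO4 in PBS mice Bax ranged from -0.018 to 0.16. After DEX in NaCl mice Bcl2 ranged from -0.17 to 0.022, Bax from -0.12 to 0.18, Bak1 from -0.057 to 0.084 and Pmaip1 from -0.25 to 0.39. After DEX in FeSO4 mice Bcl2l1 ranged from -0.14 to 0.17, Bax from -0.028 to 0.19, Bak1 from -0.60 to 0.21, Bbc3 from -0.44 to 0.30, Pmaip1 from -0.35 to 0.52 and Bmf from -0.19 to 0.31. After FeSO4 in DEX mice Bcl2l1 ranged from -0.060 to 0.10, Bax from -0.029 to 0.31 and Bbc3 from -0.73 to 0.015. For the difference, Mcl1 ranged from -0.027 to 0.13, Bax from -0.11 to 0.23, Bak1 from -0.59 to 0.20, Bcl2l11 from -0.015 to 0.66 and Pmaip1 from -0.38 to 0.47. Pmaip1 and Bcl2 had at most 55 and 57 reads per library.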
